A study of Mus musculus with 9 samples.

Results

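The genes described here are 10 heat shock protein genes of mouse germ cells. They are 3 genes of the HSP70 family (Hspa2, Hspa1l and Hspa8), 2 of the HSP110 family (Hspa4l and Hsph1), 2 of the HSP90 family (Hsp90aa1 and Hsp90ab1), 2 J-domain genes (Dnajb1 and Dnaja1) and the heat shock factor gene Hsf1. Each was taken by name, as the row of the deposited count and FPKM tables whose NCBI gene identifier carries that symbol. All 10 were found, among 21877 NCBI genes and 50493 features of every kind, and all 10 passed the filter on low counts that left 26030 features for testing.

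RNA was sequenced from 3 kinds of germ cell of wild-type (WT) mouse testis, with 3 libraries each. PAC are pachytene spermatocytes, meiotic cells whose homologous chromosomes are paired. RS are round spermatids, the haploid cells that follow meiosis, and ES are the cells labelled elongation spermatids, which condense their chromatin and build the tail. The labels name no treatment. They do not state the strain or age of the mice, the number of animals behind a library or the way the cells were isolated. The design text calls the 3 libraries of a cell type biological replicates. The p-values below measure the spread between these libraries, whatever its source.

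Heat shock proteins are molecular chaperones: J-domain proteins bring unfolded proteins to HSP70 and start its ATP cycle, HSP110 proteins end that cycle by exchanging the nucleotide, and HSP90 takes over many clients for their last folding steps. Most vertebrate cells use Hspa8 as the everyday HSP70 and make heat-inducible forms when HSF1 is activated by stress. Male germ cells make forms of their own during normal development, of which HSPA2, needed by mouse spermatocytes to complete meiosis, and HSPA1L, made in spermatids, are the best known.

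The HSP70 genes are alike enough that the letters by which reads can be told apart are shown first. The stretch below lies in the coding sequence (GENCODE M21 transcripts, GRCm38.p6), and capitals mark the letters that differ from Hspa2.
Hspa2: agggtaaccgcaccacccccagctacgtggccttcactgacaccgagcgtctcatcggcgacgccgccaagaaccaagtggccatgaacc
Hspa1l: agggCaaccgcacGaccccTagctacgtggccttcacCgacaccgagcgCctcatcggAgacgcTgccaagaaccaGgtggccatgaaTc
Hspa8: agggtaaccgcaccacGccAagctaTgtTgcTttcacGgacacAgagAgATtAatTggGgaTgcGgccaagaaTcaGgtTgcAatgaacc
Within these 90 bases Hspa1l differed from Hspa2 at 9 positions and Hspa8 at 19. Over the aligned coding sequences, Hspa2 was 76.3% identical to Hspa1l and 76.1% identical to Hspa8, and the longest run of identical letters was 32 bases in the first pair and 20 bases in the second. Hspa1l was closer to the heat-inducible genes Hspa1a (83.6%, with an identical run of 233 bases) and Hspa1b (83.5%, with a run of 188 bases). Reads that fall wholly in such a run cannot be told apart between the genes of that pair. Hspa8, Hsp90aa1 and Dnaja1 have copies elsewhere in the GENCODE M21 annotation that are at least 95% identical over at least 200 bases: 7 genes for Hspa8, 6 of them annotated as pseudogenes, and 3 pseudogenes each for Hsp90aa1 and Dnaja1. How the authors' counting shared reads among such copies is not stated, so the levels of these 3 genes are uncertain. Hspa1l (chr17:34972703-34979228, plus strand) also overlaps the antisense gene Gm10501 over 2330 bp, and Hspa2 (chr12:76403812-76406938, plus strand) overlaps the opposite-strand gene 4930426I24Rik over 171 bp. The libraries kept strand, but whether the counting used it is not stated, so the reads of these antisense partners may be included. Gm10501 aligned to the Hspa1l coding sequence, of 1926 bases, over 1772 bases at 99.9% identity. No setting tried below varied the use of strand.

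Promoter windows from RefSeq (GRCm38.p6), the 250 bases before a transcript's start, were matched for 6 of the 10 genes: Hspa2, Hspa1l, Hspa4l, Hsph1, Dnajb1 and Dnaja1. They are shown because HSF1 and other factors act through short motifs, which were searched on both strands of every window of a gene. The heat shock element was searched as a pair of its units, GAANNTTC or TTCNNGAA, and was found before 2 of 6 genes, Dnaja1 and Hsph1. Of 27025 genes with a window 14.5% held it. No member held the same element with 3 alternating units, which 0.514% of genes held. The X-box (GTTNCC, then NN, then GGNAAC), the motif of RFX factors, was found before Dnaja1 only, against 0.444% of all genes. The cAMP response element TGACGTCA was found before none of the 6, against 1.77%, and the CCAAT box (CCAAT or ATTGG) before 5 of 6, all but Hspa4l, against 37.5%. These are matches of letters, with no measurement of binding. Of 3 windows matched for Dnaja1, the one shown is chr4:40722218-40722467 on the plus strand, with the heat shock element and then the X-box in capitals. Its CCAAT boxes lie only in the other windows, which are not shown. The window of Hspa1l, chr17:34972453-34972702 on the plus strand, held a CCAAT box from base -57 to base -53 and none of the other motifs. For Hsph1 and Hspa2 only 30 bases around a match are shown, chr5:149636351-149636380 on the minus strand with the heat shock element in capitals and chr12:76404329-76404358 on the plus strand with the CCAAT box in capitals.
Dnaja1: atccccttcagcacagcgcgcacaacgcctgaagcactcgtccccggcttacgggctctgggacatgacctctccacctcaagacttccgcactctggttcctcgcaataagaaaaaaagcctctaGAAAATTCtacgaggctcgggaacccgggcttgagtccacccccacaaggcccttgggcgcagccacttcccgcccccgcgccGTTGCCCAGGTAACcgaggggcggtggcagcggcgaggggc
Hspa1l: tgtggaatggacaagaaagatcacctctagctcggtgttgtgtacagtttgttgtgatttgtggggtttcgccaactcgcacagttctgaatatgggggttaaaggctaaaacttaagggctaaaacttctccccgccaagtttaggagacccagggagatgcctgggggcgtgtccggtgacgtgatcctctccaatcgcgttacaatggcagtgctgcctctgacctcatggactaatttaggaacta
Hsph1: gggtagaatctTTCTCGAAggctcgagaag
Hspa2: gcccggggaccgATTGGctctgagagtttc

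Total counts per library lay between 22910156 and 33801617. Levels are given as CPM, counts relative to the library's total after TMM scaling. The TMM factor was lowest for ES replicate 1, at 0.758, and highest for RS replicate 1, at 1.099. Of 12 markers of elongating spermatids, all were higher in ES than in RS. Their summed level was 86500 CPM in ES replicate 1, above the 56700 and 53500 CPM of ES replicates 2 and 3. Of the ES libraries, replicate 1 was also the highest for Hspa1l, Hspa4l, Hsph1 and Dnajb1. It was the lowest for Hspa2, Hsp90aa1, Hsp90ab1, Dnaja1 and Hsf1, and lay between the others only for Hspa8. The part of its marker content in those values was not tested. In addition, of 10 markers of round spermatids 9 were higher in RS than in PAC. Of 10 pachytene markers 7 were lower in RS than in PAC, although their summed level, 3850 to 4020 CPM in RS and 3890 to 4150 CPM in PAC, was much the same. Markers of somatic testis cells were present and differed between the cell types. The 12 Sertoli markers summed to 62.3 to 147 CPM in PAC, 54.6 to 60.1 CPM in RS and 402 to 494 CPM in ES. In the same order, 9 Leydig markers summed to 106 to 143, 2.1 to 2.25 and 19.7 to 26.3 CPM, and 12 macrophage and blood markers to 6.47 to 7.99, 19.4 to 23.4 and 173 to 272 CPM. The 9 peritubular and vascular markers summed to at most 7.57, 24.6 and 25.4 CPM, and 8 markers of spermatogonia to 93.0 to 120, 35.9 to 38.2 and 41.6 to 52.4 CPM.

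Between the cell types the 10 genes parted rather than moving together. In RS against PAC, edgeR's quasi-likelihood test called 2 members higher (Hspa1l and Hspa4l) and 7 lower (Hspa2, Hspa8, Hsph1, Hsp90aa1, Hsp90ab1, Dnaja1 and Hsf1) at an adjusted p below 0.05, while 38.2% of all features tested were called higher and 34.2% lower. In ES against RS, 4 members were higher (Hspa1l, Hspa8, Hspa4l and Hsp90ab1) and 0 were lower, against 24.5% and 22.1% of all features; at an unadjusted p below 0.05, 1 member, Dnajb1, was lower, and DESeq2 also called 0 lower. In ES against PAC, 2 members were higher (Hspa1l and Hspa4l) and 5 lower (Hspa2, Hspa8, Hsph1, Hsp90aa1 and Hsf1), against 30.6% and 33.7% of all features. In either direction 72.5%, 46.6% and 64.4% of all features were called in the 3 comparisons. Among NCBI genes alone, 26.5% were higher and 46.8% lower in RS against PAC, 31.6% and 21.8% in ES against RS, and 25.1% and 42.5% in ES against PAC. Counted by CPM ranges that do not overlap, 2 members lay above and 7 below in RS against PAC, against 42.1% and 37.0% of all features. In ES against RS these were 4 and 1, against 30.2% and 29.3%, and in ES against PAC 2 and 5, against 32.0% and 35.5%. The comparisons share libraries, so their calls are not independent of each other. The median log2 fold change of the members was -0.74 in RS against PAC, 0.16 in ES against RS and -0.64 in ES against PAC, against 0.11, 0.05 and -0.09 over all features tested.

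The split between higher and lower members depended on how the libraries were scaled and which features were fitted, and only Hspa1l kept all 3 of its calls under every setting tried. Upper-quartile scaling moved all features by a median of 0.31 on the log2 scale in RS against PAC and gave 3 members higher and 4 lower. A fit of NCBI genes alone, which changes both the scaling and the features tested, moved the features it shares with the full table by a median of 0.39 there and gave 3 higher and 3 lower. With total counts only, a median shift of -0.33 in ES against RS gave 3 higher and 2 lower. In ES against PAC the split was 2 and 2 with upper-quartile scaling and 2 and 7 with total counts, with median shifts of 0.30 and -0.28. Without PAC replicate 3, 4 members were lower in RS against PAC, and without ES replicate 2, 3 were lower in ES against PAC.

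**Figure D1:**
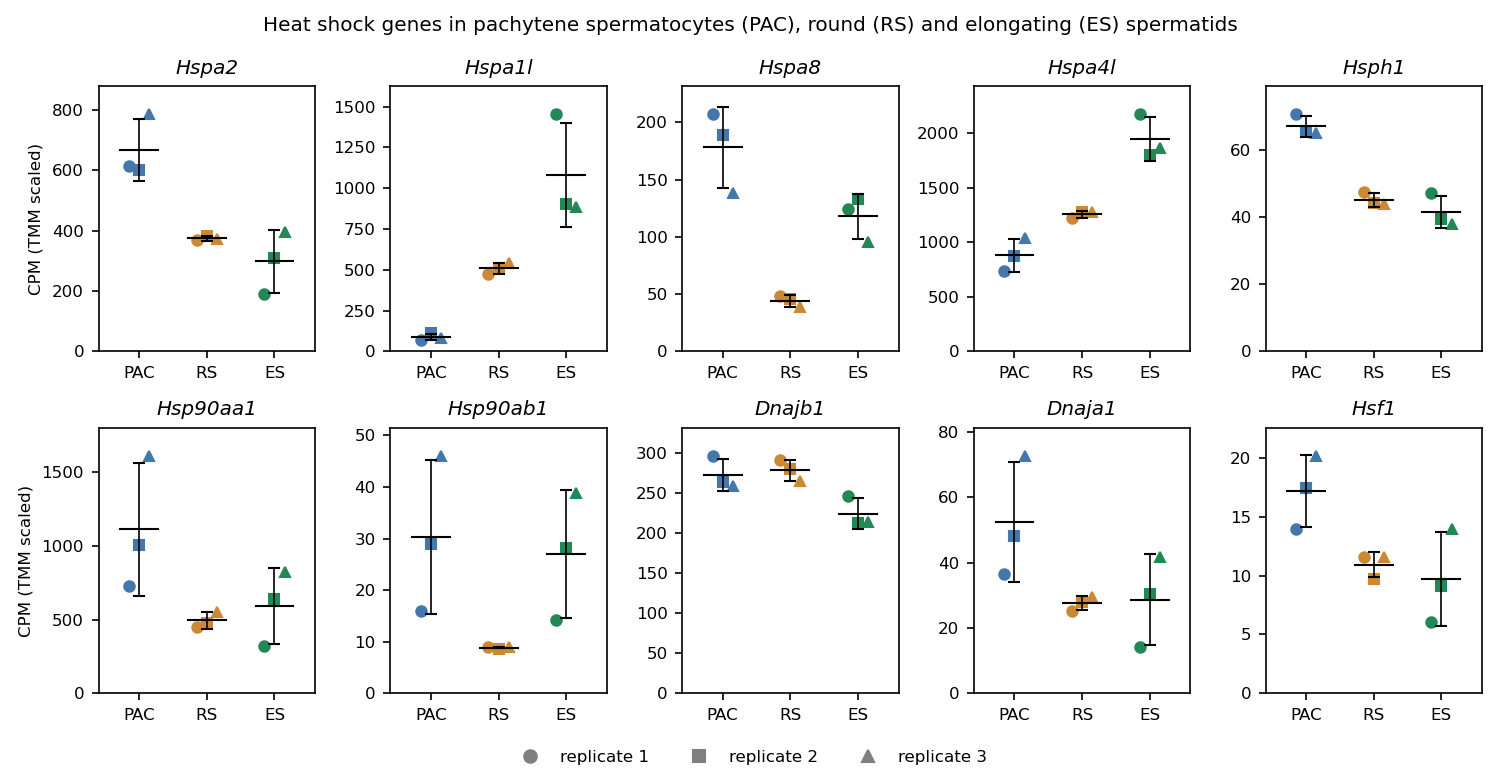
Level of each gene in CPM (TMM scaled, linear axis from 0) in the 9 libraries, by cell type; points are libraries, with shape for the replicate number, and lines and bars give the mean ± SD of 3 libraries. Hspa1l and Hspa4l step up from PAC to RS to ES, and Hspa8 and Hsp90ab1 are low in RS. For Hsp90aa1, Hsp90ab1 and Dnaja1 the 3 libraries of PAC, and those of ES, are widely spread and rise with replicate number.

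The HSP70 genes changed places along the sequence of cell types. Hspa2, which in mouse spermatocytes sits on the synaptonemal complex and helps its disassembly, was at 613, 601 and 784 CPM in the 3 PAC libraries, 368, 382 and 372 CPM in RS, and 189, 309 and 396 CPM in ES. All RS and all ES libraries lay below all PAC libraries, while the ES range took in the RS values. Hspa2 was 1.78-fold lower in RS than in PAC (log2 fold change -0.83 ± 0.22 SE, edgeR adjusted p = 0.00618) and 2.23-fold lower in ES than in PAC (-1.16 ± 0.23, edgeR adjusted p = 0.000862). Fewer cells of a type and less RNA per cell cannot be told apart in such bulk samples. ES against RS gave -0.33 ± 0.22 (edgeR adjusted p = 0.254), which became -0.59 without ES replicate 3 (edgeR adjusted p = 0.0371) and -0.08 without ES replicate 1 (0.679). In the fit of NCBI genes alone, the RS against PAC difference was -0.44 and no longer passed (edgeR adjusted p = 0.0754), nor did it in limma on log2(FPKM + 1) without a filter (-0.76, adjusted p = 0.0631).

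Hspa1l, the HSP70 of spermatids, went the other way. It was at 72.9, 110 and 81.7 CPM in PAC, 477, 509 and 541 CPM in RS, and 1452, 905 and 885 CPM in ES, with no overlap between any of the cell types. Hspa1l was 5.76-fold higher in RS than in PAC (log2 fold change 2.53 ± 0.22, edgeR adjusted p = 2.37e-06). It was 2.12-fold higher in ES than in RS (1.09 ± 0.21, edgeR adjusted p = 0.00141) and 12.2-fold higher in ES than in PAC (3.61 ± 0.23, edgeR adjusted p = 3.31e-07). ES replicate 1, the library with the lowest scaling factor, was the highest ES library for this gene. Hspa1a and Hspa1b, the heat-inducible genes that share stretches with it, averaged 1.64 ± 0.0357 and 0.899 ± 0.0782 CPM in PAC, 2.96 ± 0.472 and 2.41 ± 0.266 CPM in RS, and 3.48 ± 0.315 and 5.61 ± 1.42 CPM in ES (SD, n = 3 each).

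Hspa8, the HSP70 of most cell types (chr9:40801276-40805202, plus strand), was at 207, 189 and 139 CPM in PAC, 48.1, 45.6 and 38.6 CPM in RS, and 125, 134 and 95.9 CPM in ES. The RS libraries were the low ones, and all 3 groups lay apart, with ES below PAC. It was 4.04-fold lower in RS than in PAC (log2 fold change -2.01 ± 0.19, edgeR adjusted p = 3.41e-06), and 2.68-fold higher in ES than in RS (1.42 ± 0.18, edgeR adjusted p = 9.01e-05). The smaller difference of ES against PAC (-0.59 ± 0.18, edgeR adjusted p = 0.0123) no longer passed with upper-quartile scaling (-0.29, adjusted p = 0.201), with NCBI genes alone (-0.33, 0.128) or in a fit of only the PAC and ES libraries (-0.40, 0.137). Somatic markers differed between the cell types as well, in part with this gene and in part against it. Of 10 Sertoli markers tested, all were higher in ES than in RS and 9 were lower in RS than in PAC, with Amh and Fshr at 0 in all RS libraries. Of 9 Leydig markers, all were higher in ES than in RS and lower in RS than in PAC, with Lhcgr at 0 in RS, and of 11 macrophage and blood markers tested 8 were higher in ES than in RS. In RS against PAC, where Hspa8 was lower, 7 of the blood markers were higher and 0 lower, and of 7 peritubular and vascular markers tested 4 were higher and 1 lower. In ES against PAC, where Hspa8 was also lower, all 10 Sertoli markers were higher and all 9 Leydig markers lower. Of 8 markers of spermatogonia, 1 was higher and 5 lower in RS against PAC. In ES against RS 6 of them were higher and 1 lower, and in ES against PAC 2 were higher and 1 lower. Within PAC and within RS, Hspa8 and the Sertoli sum both fell from replicate 1 to replicate 3. That sum was 147, 102 and 62.3 CPM in PAC and 60.1, 58.9 and 54.6 CPM in RS. None of the other somatic sums fell in this order in both PAC and RS. In ES, Hspa8 and the Sertoli, Leydig, and macrophage and blood sums were all lowest in replicate 3. The part of these markers in the Hspa8 result was not tested.

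Within each library, levels per length (FPKM) of the 3 HSP70 genes can be set against each other without any scaling between libraries. Hspa2 made up 68.2% ± 6.48 of their summed FPKM in PAC, 39.0% ± 1.07 in RS and 19.8% ± 8.85 in ES (SD, n = 3 each). Hspa1l made up 9.55% ± 2.34, 55.5% ± 1.83 and 71.0% ± 9.38, and Hspa8 22.2% ± 5.46, 5.53% ± 0.777 and 9.13% ± 1.90 in the same order. The Hspa2 share lay between 37.8% and 39.8% in RS, against 63.7% to 75.6% in PAC, and between 10.2% and 27.5% in ES, so no pair of cell types overlapped. Each pair gave p = 0.1 in a two-sided exact permutation test, the smallest p that 3 libraries against 3 allow, and 0.1 after Benjamini-Hochberg adjustment over the 9 tests of family shares. These shares do not depend on the scaling, and leaving out any 1 library left the differences with the same sign.

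**Figure D2:**
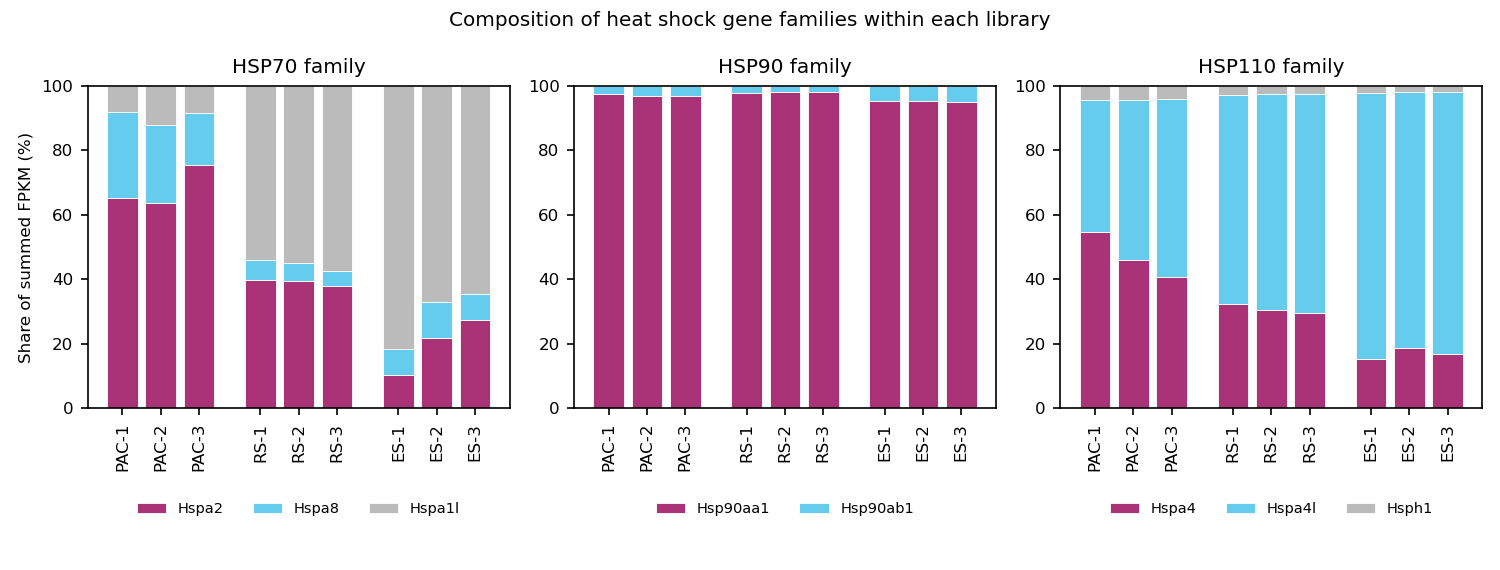
Share of each gene in the summed FPKM of its family, in percent, for the 9 libraries of PAC, RS and ES; bars sum to 100%. The Hspa2 part of the HSP70 bars shrinks from PAC to RS to ES as the Hspa1l part grows, Hsp90aa1 fills 94.9% or more of every HSP90 bar, and the Hspa4l part of the HSP110 bars grows from PAC to RS to ES.

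The wider HSP70 and HSP110 family has 15 genes, all tested, of which 6 were higher and 9 lower in RS against PAC, 6 and 4 in ES against RS, and 5 and 9 in ES against PAC. These counts include the members Hspa2, Hspa1l, Hspa8, Hspa4l and Hsph1. Of all features, 38.2% were higher and 34.2% lower in the first, 24.5% and 22.1% in the second, and 30.6% and 33.7% in the third. Among NCBI genes alone, 46.8%, 21.8% and 42.5% were lower in the same order. The list median of the log2 fold change was -0.51, 0.23 and -0.69. The majority in RS against PAC turned to 6 higher and 5 lower with upper-quartile scaling and to 6 and 4 with NCBI genes alone, and that in ES against RS turned to 4 and 5 with total counts. Hyou1, an HSP110-like chaperone of the endoplasmic reticulum, averaged 41.0 ± 2.22 CPM in RS and 267 ± 16.7 CPM in PAC (log2 fold change -2.70, edgeR adjusted p = 1.08e-07). Hspa5, the HSP70 of that compartment, averaged 134 ± 17.3 CPM in ES and 364 ± 35.8 CPM in PAC (-1.44, edgeR adjusted p = 4.59e-06). Hspa14, which works with the ribosome-associated complex, averaged 1.68 ± 0.0881 CPM in RS and 14.7 ± 2.83 CPM in PAC (-3.12, edgeR adjusted p = 1.01e-06), and 5.95 ± 1.51 CPM in ES (1.82 against RS, edgeR adjusted p = 9.68e-05). Hspa13, a microsomal HSP70, was lower in ES at 35.1 ± 1.40 CPM, against 59.8 ± 3.13 CPM in RS (-0.77, edgeR adjusted p = 0.000325).

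Of the HSP110 genes, Hspa4l (chr3:40744500-40796103, plus strand), whose loss in mice reduces male fertility, was at 734, 877 and 1035 CPM in PAC, 1221, 1274 and 1276 CPM in RS, and 2170, 1801 and 1862 CPM in ES. Each cell type lay wholly above the one before it. Hspa4l was 1.43-fold higher in RS than in PAC (log2 fold change 0.51 ± 0.15, edgeR adjusted p = 0.00812). Further on it was 1.55-fold higher in ES than in RS (0.63 ± 0.15, edgeR adjusted p = 0.00435) and 2.21-fold higher in ES than in PAC (1.14 ± 0.15, edgeR adjusted p = 4e-05). The step of ES over RS was 0.29 and no longer passed with total counts (edgeR adjusted p = 0.106) or in limma on log2(FPKM + 1) (adjusted p = 0.117). Hsph1 (chr5:149616843-149636498, minus strand), the heat-inducible HSP110, was at 70.5, 65.3 and 65.0 CPM in PAC, 47.5, 44.1 and 43.8 CPM in RS, and 47.0, 39.4 and 38.0 CPM in ES. RS and ES overlapped, and both lay below PAC. The log2 fold change was -0.57 ± 0.13 in RS against PAC (edgeR adjusted p = 0.00215) and -0.69 ± 0.13 in ES against PAC (edgeR adjusted p = 0.000633). It was -0.12 ± 0.13 in ES against RS (edgeR adjusted p = 0.466). The first of these was -0.26 with upper-quartile scaling (edgeR adjusted p = 0.116) and -0.18 with NCBI genes alone (0.258). With total counts, Hsph1 was lower in ES than in RS (-0.46, edgeR adjusted p = 0.0140), and limma on FPKM also called it.

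Set against Hspa4 and Hsph1 within each library, Hspa4l made up 48.8% ± 7.28 of the summed HSP110 FPKM in PAC, 66.4% ± 1.52 in RS and 81.0% ± 1.62 in ES. Hspa4, the widely expressed member, made up 47.1% ± 7.01, 30.9% ± 1.38 and 17.0% ± 1.66, and Hsph1 4.19% ± 0.276, 2.71% ± 0.137 and 1.96% ± 0.0699. No pair of cell types overlapped in the Hspa4l share. The differences were 17.7 percentage points in RS against PAC, 14.6 in ES against RS and 32.3 in ES against PAC. Each pair gave p = 0.1 in the exact permutation test, the smallest possible.

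**Figure D3:**
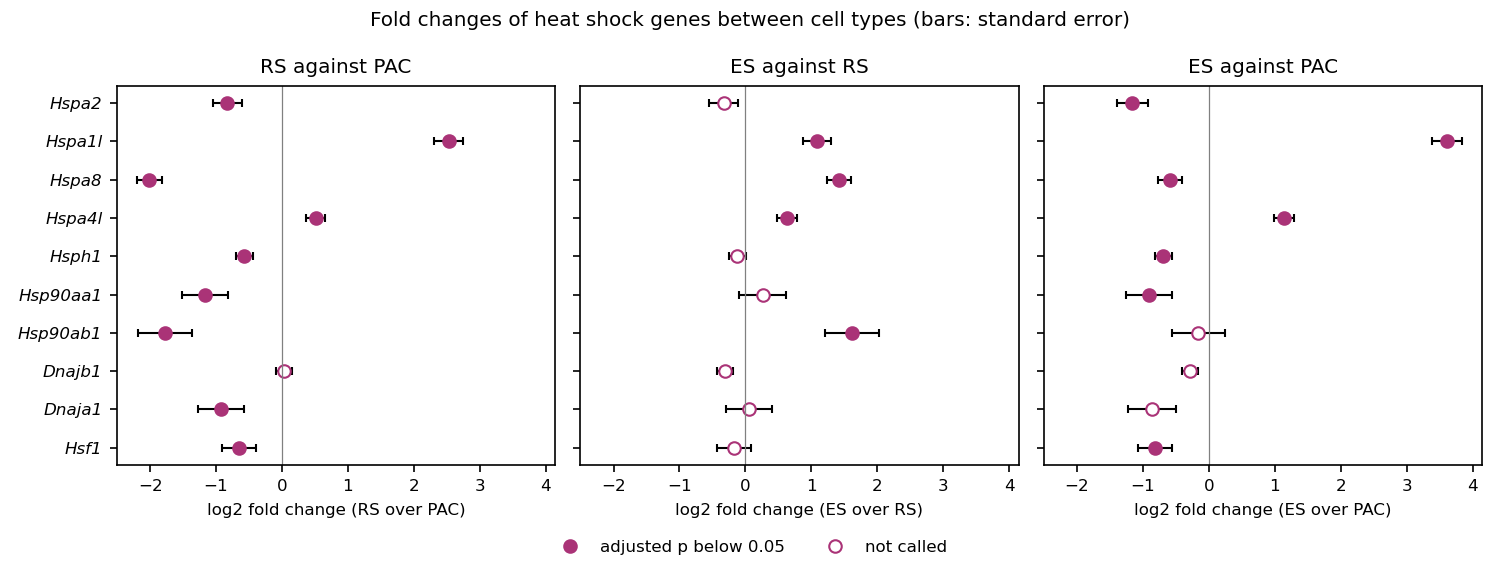
Log2 fold change of each gene in RS over PAC, ES over RS and ES over PAC, from edgeR over all 9 libraries; bars are 1 standard error, and filled points have an adjusted p below 0.05. Hspa1l and Hspa4l lie right of 0 in all 3 comparisons, and Hspa8 and Hsp90ab1 lie left of 0 in RS over PAC and right of it in ES over RS.

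The HSP90 genes were told apart by level. Hsp90aa1 (chr12:110691036-110696395, minus strand), the alpha isoform, heat-inducible in many cells, was at 728, 1003 and 1606 CPM in PAC, 450, 477 and 555 CPM in RS, and 318, 638 and 824 CPM in ES. The RS libraries lay below all PAC libraries, and the ES range overlapped both. Hsp90aa1 was 2.25-fold lower in RS than in PAC (log2 fold change -1.17 ± 0.35, edgeR adjusted p = 0.0138), but PAC replicate 3 carried much of this: without it the value was -0.81 (edgeR adjusted p = 0.0511). Limma on log2(FPKM + 1) without a filter gave -1.02 (adjusted p = 0.0782). ES against RS gave 0.26 ± 0.35 (edgeR adjusted p = 0.569). ES against PAC gave -0.91 ± 0.35 (edgeR adjusted p = 0.0453). This no longer passed when PAC replicate 2 (-0.99, 0.0635), PAC replicate 3 (-0.57, 0.164), ES replicate 1 (-0.60, 0.114) or ES replicate 2 (-0.96, 0.0836) was left out, nor without RS replicate 1, 2 or 3 (-0.91 each, edgeR adjusted p = 0.0562, 0.0594 and 0.0570). It also missed with upper-quartile scaling (-0.60, edgeR adjusted p = 0.130), NCBI genes alone (-0.68, 0.0851), no filter (-0.93, 0.102), a stricter filter (-0.86, 0.0508) and a fit of only the PAC and ES libraries (-0.69, 0.126). DESeq2 size factors, total counts, DESeq2, a block for replicate number and the 3 limma settings on FPKM kept the ES against PAC call.

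Hsp90ab1 (chr17:45567778-45573261, minus strand), the beta isoform, constitutive and abundant in most tissues, was at 16.0, 28.98 and 45.9 CPM in PAC, 9.04, 8.68 and 8.94 CPM in RS, and 14.2, 28.2 and 38.9 CPM in ES. RS was uniformly low, and the PAC and ES libraries spread over the same range. The log2 fold change was -1.77 ± 0.41 in RS against PAC (edgeR adjusted p = 0.00346), 1.61 ± 0.41 in ES against RS (edgeR adjusted p = 0.00979) and -0.16 ± 0.40 in ES against PAC (edgeR adjusted p = 0.743). In limma on log2(FPKM + 0.1) the ES against RS value was 1.14 and missed the threshold (adjusted p = 0.0537). Limma on log2(FPKM + 1), with and without a filter, did not call Hsp90ab1 there either. The Sertoli and Leydig marker sums were also lowest in RS, whereas that of macrophage and blood markers was lowest in PAC, and their part here was not tested. Among the PAC libraries Hsp90ab1 rose with replicate number. The Sertoli marker sum fell, at 147, 102 and 62.3 CPM in replicates 1, 2 and 3. The peritubular and vascular sum rose, to 7.57 CPM in replicate 3. In the same replicate order the Leydig sum was 140, 106 and 143 CPM and the macrophage and blood sum 7.99, 6.47 and 6.49 CPM. None of these sums was tested against Hsp90ab1. Per length, Hsp90aa1 made up 97.1% ± 0.418 of the summed FPKM of both isoforms in PAC, 98.0% ± 0.210 in RS and 95.1% ± 0.164 in ES. No pair of cell types overlapped in this share. The differences were 0.929 percentage points in RS against PAC, -2.89 in ES against RS and -1.96 in ES against PAC, and an exact permutation test gave its smallest p of 0.1 for each.

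The HSP90 family as a whole has 4 genes. In RS against PAC 0 were higher and 4 lower, in ES against RS 1 and 2, and in ES against PAC 0 and 3, the members Hsp90aa1 and Hsp90ab1 included. Of all features, 38.2% were higher and 34.2% lower in the first, 24.5% and 22.1% in the second, and 30.6% and 33.7% in the third. The list medians were -1.07, -0.05 and -1.08, and the ES against RS split was 1 and 1 with DESeq2 size factors. Hsp90b1, the form of the endoplasmic reticulum, averaged 624 ± 106 CPM in PAC, 320 ± 10.3 CPM in RS and 219 ± 37.0 CPM in ES (ES against PAC -1.51, edgeR adjusted p = 1.13e-05). Trap1, the mitochondrial form, averaged 213 ± 25.1, 115 ± 1.43 and 89.2 ± 5.94 CPM in the same order (-1.25, edgeR adjusted p = 7.69e-06). Its smaller difference between ES and RS (-0.37, edgeR adjusted p = 0.0325) did not pass with DESeq2 size factors (-0.23, edgeR adjusted p = 0.172). It also missed without RS replicate 1, 2 or 3 (-0.37, -0.39 and -0.38) or ES replicate 1 or 2 (-0.32 and -0.37), at edgeR adjusted p from 0.0635 to 0.0879. HSP90 works with cochaperones that load, time and release its clients. Of 24 such genes 2 were higher and 18 lower in RS against PAC, 7 and 8 in ES against RS, and 1 and 19 in ES against PAC. Among NCBI genes alone, 46.8%, 21.8% and 42.5% were lower in the same order. The list medians were -0.78, 0.06 and -1.10. With upper-quartile scaling and with NCBI genes alone the first split was 2 and 13. The second was 6 and 10 with total counts, 7 and 6 in DESeq2 and 4 and 10 in limma on log2(FPKM + 1). With upper-quartile scaling the last was 1 and 16. Tomm34, which binds both HSP70 and HSP90, averaged 34.3 ± 9.22 CPM in PAC, 2.80 ± 0.299 CPM in RS and 16.9 ± 6.28 CPM in ES (RS against PAC -3.61, edgeR adjusted p = 2.34e-06; ES against RS 2.59, 4.82e-05). Rpap3, part of the R2TP complex, was lower in RS at 2.19 ± 0.307 CPM, against 17.4 ± 2.55 CPM in PAC (-2.99, edgeR adjusted p = 7.34e-07). Ppp5c, a phosphatase bound to HSP90, was lower in ES at 23.0 ± 2.42 CPM, against 90.9 ± 21.8 CPM in PAC (-1.98, edgeR adjusted p = 3.6e-06). Fkbp5, a steroid receptor cochaperone, was higher in ES at 12.3 ± 2.39 CPM, against 2.89 ± 0.282 CPM in RS (2.09, edgeR adjusted p = 4.73e-05).

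Of the J-domain genes, Dnajb1 (chr8:83608175-83612653, plus strand), a main partner of HSP70 in the heat shock response, passed in none of the comparisons. It was at 295, 263 and 259 CPM in PAC, 291, 280 and 264 CPM in RS, and 247, 212 and 214 CPM in ES. PAC and RS covered the same range, and all 3 ES libraries lay below all of the others. The log2 fold change was 0.03 ± 0.12 in RS against PAC (edgeR adjusted p = 0.832). It was -0.31 ± 0.12 in ES against RS (edgeR adjusted p = 0.0559) and -0.28 ± 0.12 in ES against PAC (edgeR adjusted p = 0.0625). Both comparisons with ES were close to the threshold and hung on the scaling: with total counts they were -0.65 and -0.58 and passed (edgeR adjusted p = 0.00103 and 0.00129), as they did in limma on log2(FPKM + 1) (-0.62 and -0.54, adjusted p = 0.00092 and 0.00125). The first also passed with NCBI genes alone (-0.44, edgeR adjusted p = 0.0160). The value in ES against PAC was 0.03 with upper-quartile scaling, which instead called Dnajb1 higher in RS than in PAC (0.34, edgeR adjusted p = 0.0441), as NCBI genes alone did (0.42, 0.0159). Leaving out ES replicate 1 brought ES against RS to -0.39 and ES against PAC to -0.35 (edgeR adjusted p = 0.0188 and 0.0204). Leaving out PAC replicate 3 brought them to -0.33 and -0.34 (edgeR adjusted p = 0.0400 and 0.0467), and leaving out PAC replicate 1 brought the first to -0.33 (0.0314).

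Dnaja1 (chr4:40722468-40734965, plus strand), a class A partner of HSP70 whose loss in mice impairs spermatogenesis, was at 36.5, 48.0 and 72.5 CPM in PAC, 25.3, 28.1 and 29.4 CPM in RS, and 14.1, 30.4 and 41.6 CPM in ES. RS lay below PAC, and ES overlapped both. The log2 fold change in RS against PAC was -0.92 ± 0.35 (edgeR adjusted p = 0.0379). That in ES against RS was 0.06 ± 0.35 (edgeR adjusted p = 0.908) and that in ES against PAC -0.86 ± 0.36 (edgeR adjusted p = 0.0547). The RS against PAC call was lost when PAC replicate 2 (-0.98, 0.0619), PAC replicate 3 (-0.61, 0.145), RS replicate 1 (-0.86, 0.103), RS replicate 2 (-0.92, 0.0854), RS replicate 3 (-0.96, 0.0735) or ES replicate 2 (-0.92, 0.0537) was left out, edgeR adjusted p in each case. It was lost as well with upper-quartile scaling (-0.60, edgeR adjusted p = 0.120), NCBI genes alone (-0.54, 0.158), total counts (-0.88, 0.0759) and no filter (-0.90, 0.0862). The 3 limma settings on FPKM lost it too, at -0.75 to -0.80 (adjusted p = 0.0817 to 0.146). DESeq2 size factors (-0.97, edgeR adjusted p = 0.0215), a stricter filter (-0.89, 0.0416) and a block for replicate number (-0.85, 0.00498) kept it. A fit of only the PAC and RS libraries kept it too (-0.92, edgeR adjusted p = 0.00628). DESeq2 did so as well (-0.97, adjusted p = 0.00706). Leaving out ES replicate 1 kept it (-0.92, edgeR adjusted p = 0.00508). So did dropping ES replicate 3 (-0.92, 0.0206) or PAC replicate 1 (-1.13, 0.0194). In ES against PAC the call was gained with total counts (-1.11, edgeR adjusted p = 0.0366), with replicate number as a block (-0.91, 0.00361). It was also gained without PAC replicate 1 (-1.09, edgeR adjusted p = 0.0247) and without ES replicate 3 (-1.24, 0.0121), and DESeq2 (-0.80, adjusted p = 0.0313) and the 3 limma settings (-1.09 to -1.20, adjusted p = 0.0198 to 0.0473) also made it.

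Of the 17 J-domain genes of classes A and B, the general partners of HSP70, 8 were higher and 3 lower in RS against PAC, 3 and 2 in ES against RS, and 8 and 3 in ES against PAC. The shares called over all features are those given for the members above. Their median log2 fold changes were 0.13, 0.03 and 0.11, and with total counts the splits with ES turned to 3 and 7 and to 7 and 8. With NCBI genes alone the first split was 9 and 1 and the second 3 and 4, and with replicate number as a block the last was 8 and 5. Limma on log2(FPKM + 1) gave 3 and 7 in ES against RS and 7 and 7 in ES against PAC. Dnajb8, a J-domain protein known from testis, averaged 48.1 ± 9.67 CPM in PAC, 314 ± 29 CPM in RS and 1000 ± 318 CPM in ES (RS against PAC 2.71, edgeR adjusted p = 2.11e-06; ES against PAC 4.38, 1.53e-07). Dnajb7, also known from testis, averaged 104 ± 16.6 CPM in PAC, 435 ± 24.2 CPM in RS and 520 ± 195 CPM in ES (RS against PAC 2.06, edgeR adjusted p = 1.54e-05). Dnajb14, of the endoplasmic reticulum membrane, was higher in ES at 397 ± 14.6 CPM, against 198 ± 6.86 CPM in RS (1.01, edgeR adjusted p = 3.41e-05). The 32 genes of class C, a mixed class with more specialised tasks, were called 6 higher and 17 lower in RS against PAC, 10 and 4 in ES against RS, and 8 and 14 in ES against PAC. The shares of all features higher and lower were 38.2% and 34.2%, 24.5% and 22.1%, and 30.6% and 33.7%. Among NCBI genes alone, 46.8%, 21.8% and 42.5% were lower in the same order. The class C medians were -0.48, 0.17 and -0.31. With total counts the splits with ES were 9 and 10 and 4 and 17, with DESeq2 size factors that of ES against RS was 12 and 2, and with upper-quartile scaling that of RS against PAC was 8 and 13. Dnajc28 averaged 14.7 ± 1.69 CPM in RS and 83.7 ± 15.9 CPM in PAC (-2.51, edgeR adjusted p = 4.97e-07). Dnajc5, which guards vesicle fusion, was higher in ES at 15.5 ± 3.71 CPM, against 5.95 ± 1.10 CPM in RS (1.38, edgeR adjusted p = 0.00023). Dnajc11, a mitochondrial J-domain protein, was higher in ES at 5.04 ± 0.454 CPM, against 2.19 ± 0.210 CPM in RS (1.20, edgeR adjusted p = 0.000348). Dnajc5b, a relative of Dnajc5, averaged 270 ± 93.3 CPM in ES and 53.2 ± 5.29 CPM in PAC (2.34, edgeR adjusted p = 3.43e-06).

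**Figure D4:**
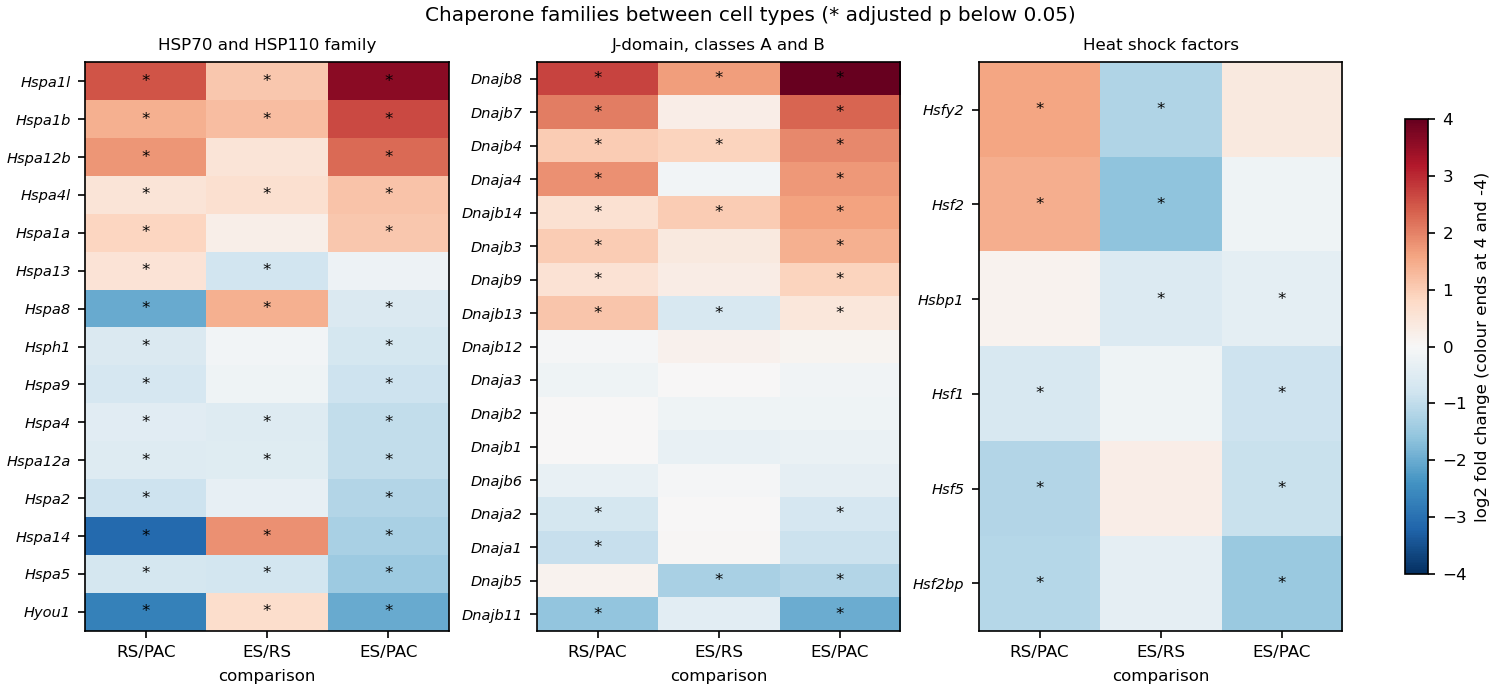
Log2 fold changes (colour, ending at 4 and -4) of the 15 HSP70 and HSP110 genes, 17 J-domain genes of classes A and B and 6 tested heat shock factor genes, sorted by ES over PAC; stars mark an adjusted p below 0.05 in edgeR. By ES over PAC, Hspa1l (3.61) and Dnajb8 (4.38) top their panels and Hyou1 (-2.01) and Dnajb11 (-1.99) are at the bottom, and Hsf2 and Hsfy2 are higher in RS than in PAC and lower in ES than in RS.

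Hsf1 (chr15:76477362-76501155, plus strand), the transcription factor that switches on heat shock genes under stress, was the least abundant member per length in PAC and ES. It was at 14.0, 17.4 and 20.1 CPM in PAC, 11.5, 9.72 and 11.5 CPM in RS, and 6.05, 9.15 and 13.9 CPM in ES. RS and ES overlapped, and both lay below PAC, with ES replicate 3 close under PAC replicate 1. The log2 fold change was -0.65 ± 0.26 in RS against PAC (edgeR adjusted p = 0.0399), -0.17 ± 0.26 in ES against RS (edgeR adjusted p = 0.626) and -0.82 ± 0.26 in ES against PAC (edgeR adjusted p = 0.0165). The RS against PAC call was lost when PAC replicate 2 (-0.64, 0.0899), PAC replicate 3 (-0.52, 0.127), RS replicate 1 (-0.68, 0.0773), RS replicate 2 (-0.56, 0.129), RS replicate 3 (-0.68, 0.0775) or ES replicate 2 (-0.65, 0.0546) was left out. The ES against PAC call was lost without PAC replicate 3 (-0.71, 0.0541) or ES replicate 2 (-0.78, 0.0558), edgeR adjusted p throughout. Upper-quartile scaling (-0.34 and -0.52, edgeR adjusted p = 0.237 and 0.0905) and NCBI genes alone (-0.26 and -0.58, 0.337 and 0.0512) ended both calls. That of RS against PAC was also lost with total counts and with a stricter filter (-0.61 each, edgeR adjusted p = 0.0883 and 0.0508), and in the 3 limma settings (-0.51 to -0.57, adjusted p = 0.102 to 0.159). That of ES against PAC was also lost in a fit of only the PAC and ES libraries (-0.62, edgeR adjusted p = 0.0876). The RS against PAC call was kept with DESeq2 size factors (-0.7, edgeR adjusted p = 0.0226) and with no filter (-0.63, 0.043). A block for replicate number (-0.62, edgeR adjusted p = 0.0193) and a fit of only PAC and RS libraries (-0.65, 0.00618) kept it too. DESeq2 did so as well (-0.71, adjusted p = 0.0169). Dropping ES replicate 1 or 3 left it at -0.65 (edgeR adjusted p = 0.0105 and 0.0133). Dropping PAC replicate 1 gave -0.78 (0.0316).

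The other heat shock factors had courses of their own. Of 8 factor and factor-binding genes 6 were tested, and 2 were higher and 3 lower in RS against PAC, 0 and 3 in ES against RS, and 0 and 4 in ES against PAC, with medians of -0.25, -0.44 and -0.61. With upper-quartile scaling the first split was 3 and 2 and the last 1 and 1. The shares of all features called higher and lower were 38.2% and 34.2%, 24.5% and 22.1%, and 30.6% and 33.7%. Hsf2, a factor of development and meiosis, averaged 57.5 ± 10.1 CPM in PAC, 157 ± 2.31 CPM in RS and 51.0 ± 8.61 CPM in ES. It was higher in RS than in PAC (1.45, edgeR adjusted p = 1.69e-05) and lower in ES than in RS (-1.62, edgeR adjusted p = 2.24e-05). Hsfy2 had the same course, with 67.7 ± 11.3 CPM in PAC, 203 ± 22.2 CPM in RS and 89 ± 13.2 CPM in ES (1.58 and -1.19, edgeR adjusted p = 9.22e-06 and 0.000163). Hsf5, which mouse spermatocytes need for meiosis, averaged 192 ± 72.0 CPM in ES and 357 ± 90.9 CPM in PAC (-0.90, edgeR adjusted p = 0.0138). This missed without PAC replicate 3 (-0.70, edgeR adjusted p = 0.0508) and with upper-quartile scaling (-0.60, 0.0568). Hsf2bp, a meiotic recombination factor first found as a partner of HSF2, averaged 39.3 ± 2.58 CPM in ES and 110 ± 19.8 CPM in PAC (-1.49, edgeR adjusted p = 6.4e-06). Hsf3 and Hsf4 were too low to test, at 0.108 CPM or less in every library.

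The heat-inducible genes that HSF1 is known to bind, a list of 20 that holds 7 of the members, were called in both directions. In RS against PAC 6 were higher and 10 lower, in ES against RS 7 and 3, and in ES against PAC 6 and 7, with medians of -0.46, 0.21 and -0.26. With upper-quartile scaling the splits of RS and of ES against PAC were 7 and 7 and 7 and 5, and with total counts those of ES against RS and PAC were 6 and 5 and 6 and 10. Beside the main splits, the shares of all features higher and lower were 38.2% and 34.2%, 24.5% and 22.1%, and 30.6% and 33.7%. Bag3 and Chordc1, which bind HSP70 and HSP90, were lower in RS, at 7.14 ± 0.766 and 4.64 ± 0.301 CPM, against 15 ± 3.25 and 13.6 ± 2.96 CPM in PAC (-1.07 and -1.55, edgeR adjusted p = 0.0013 and 4.03e-05). Dnajb4, a J-domain gene, averaged 112 ± 8.70 CPM in PAC, 229 ± 16.5 CPM in RS and 428 ± 53.7 CPM in ES (ES against PAC 1.93, edgeR adjusted p = 6.52e-07). Hspb1 was higher in ES at 16.3 ± 1.89 CPM, against 7.34 ± 0.709 CPM in RS (1.15, edgeR adjusted p = 0.00153). Fkbp4 was lower in ES at 129 ± 20.6 CPM, against 331 ± 108 CPM in PAC (-1.36, edgeR adjusted p = 0.000182).

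Of 13 nucleotide exchange factors and other regulators of HSP70, 2 were higher and 7 lower in RS against PAC, 4 and 1 in ES against RS, and 3 and 8 in ES against PAC. The medians were -0.70, 0.25 and -0.64. With total counts the ES against RS split was 3 and 4, and with upper-quartile scaling that of ES against PAC was 4 and 6. For this list and the next, the shares of all features higher and lower were 38.2% and 34.2%, 24.5% and 22.1%, and 30.6% and 33.7%. Bag1, an exchange factor, averaged 200 ± 25.8 CPM in PAC, 408 ± 42.0 CPM in RS and 1370 ± 334 CPM in ES (ES against PAC 2.78, edgeR adjusted p = 5.31e-07). Grpel2, the exchange factor of the mitochondrial HSP70, was lower in RS at 5.52 ± 0.365 CPM, against 15.8 ± 1.97 CPM in PAC (-1.51, edgeR adjusted p = 1.89e-05). Of 11 small heat shock proteins 6 were tested. Of these 1 was higher and 2 lower in RS against PAC, 3 and 0 in ES against RS, and 3 and 2 in ES against PAC, with medians of -0.03, 0.61 and 0.57. Upper-quartile scaling gave 2 and 2 in the first, and total counts 3 and 1 in the second. Odf1, a protein of the outer dense fibres of the tail, averaged 147 ± 24.1 CPM in PAC, 677 ± 85.6 CPM in RS and 2780 ± 520 CPM in ES (ES against PAC 4.24, edgeR adjusted p = 4.47e-08). Hspb9, a form of testis, averaged 4720 ± 940 CPM in ES and 1600 ± 32.8 CPM in RS (1.56, edgeR adjusted p = 3.22e-05). Odf1 and Hspb9 are also among the elongating spermatid markers used above. Hspb6 was lower in RS at 4.57 ± 0.656 CPM, against 18.8 ± 1.11 CPM in PAC (-2.04, edgeR adjusted p = 8.44e-05).

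Of 18 chaperones of the endoplasmic reticulum and mitochondria, 4 were higher and 12 lower in RS against PAC, 4 and 8 in ES against RS, and 4 and 12 in ES against PAC, with medians of -0.73, -0.29 and -1.01. The ES against RS split was 4 and 5 with DESeq2 size factors and 2 and 9 with total counts. For this list and that of HSPA2 partners below, the shares of all features higher and lower were 38.2% and 34.2%, 24.5% and 22.1%, and 30.6% and 33.7%. Clpb, the mitochondrial disaggregase, averaged 278 ± 35.8 CPM in PAC, 1270 ± 136 CPM in RS and 4300 ± 654 CPM in ES (ES against PAC 3.95, edgeR adjusted p = 3.08e-08). Calr3, a calreticulin of testis, averaged 149 ± 51.4 CPM in ES and 24.2 ± 2.73 CPM in PAC (2.62, edgeR adjusted p = 2.18e-06). Pdilt, a testis protein of the disulfide isomerase family, averaged 121 ± 11.6 CPM in ES and 230 ± 18.5 CPM in RS (-0.93, edgeR adjusted p = 0.000426). Of 10 described partners and clients of HSPA2 in germ cells, 4 were higher and 5 lower in RS against PAC, 2 and 3 in ES against RS, and 2 and 6 in ES against PAC, with medians of -0.33, -0.02 and -0.47. With upper-quartile scaling the first and last splits were 4 and 2 and 4 and 3, and with total counts the second was 0 and 4. Tnp1 and Tnp2, the transition proteins that replace histones, averaged 4640 ± 347 and 1290 ± 71.6 CPM in RS, against 511 ± 128 and 182 ± 52.8 CPM in PAC (3.18 and 2.83, edgeR adjusted p = 4.62e-05 and 7.67e-05). Both are also among the elongating spermatid markers, and Sycp1 of this list is also a pachytene marker. Ccnb1, the cyclin of the kinase CDK1, and Spam1, a sperm surface hyaluronidase, were lower in ES at 103 ± 12.7 and 66.1 ± 2.47 CPM, against 272 ± 13.2 and 180 ± 10.1 CPM in RS (-1.40 and -1.45, edgeR adjusted p = 1.82e-05 and 1.18e-05).

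Ordered per length within a cell type, the members ran in PAC from Hsp90aa1 at 410 ± 165 FPKM (rank 167 of 21877 NCBI genes) through Hspa2 (276 ± 41.3), Hspa4l (244 ± 45.2), Dnajb1 (121 ± 6.12) and Hspa8 (88.7 ± 17.4) to Hspa1l (38.5 ± 9.59). Below them came Hsph1 (20.8 ± 0.586), Dnaja1 (16.2 ± 5.70), Hsp90ab1 (12.7 ± 6.28) and Hsf1 at 8.39 ± 1.59 FPKM. The libraries of Hsp90aa1, Hspa2 and Hspa4l overlapped from one to the next, as did those of the last 4 genes. In RS the order was Hspa4l at 380 ± 7.20 FPKM (rank 280), Hspa1l (230 ± 13.7), Hsp90aa1 (192 ± 20.5), Hspa2 (161 ± 2.23), and Dnajb1 (127 ± 6.28). It went on with Hspa8 (22.9 ± 2.62), Hsph1 (15.5 ± 0.842), Dnaja1 (8.88 ± 0.611), Hsf1 (5.55 ± 0.526) and Hsp90ab1 (3.87 ± 0.104), with no overlap between neighbours. In ES it was Hspa4l at 465 ± 8.53 FPKM (rank 198), Hspa1l at 381 ± 66.6 FPKM (rank 250), Hsp90aa1 (187 ± 92.9), Hspa2 (105 ± 44.4), and Dnajb1 (82.7 ± 2.85). After them came Hspa8 (48.6 ± 8.89), Hsph1 (11.3 ± 0.154), Hsp90ab1 (9.68 ± 5.04), Dnaja1 (7.61 ± 4.14) and Hsf1 (4.02 ± 1.92). There Hsp90aa1, Hspa2 and Dnajb1 overlapped from one to the next, as did the last 4. The leading member was thus an HSP90 gene in PAC and the HSP110 gene Hspa4l in RS and ES. Together the 10 genes took 0.287% to 0.434% of a library's counts in PAC, 0.324% to 0.342% in RS and 0.347% to 0.407% in ES.

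The annotated genes with the profiles most like those of 3 members were sought over the 9 libraries among 9467 genes with a mean of at least 5 CPM, by the distance between log2 CPM profiles centred on their means. For Hspa2 they were Pmpcb, a subunit of the mitochondrial processing peptidase (distance 0.25, Pearson r 0.995), Slc26a8, an anion transporter of sperm (0.25, r 0.992), and Kdm2b, a histone demethylase (0.27, r 0.988). For Hspa1l they were Abhd16b (0.28, r 0.999), 4921517D22Rik (0.29, r 0.998) and Tex13a (0.32, r 0.999). These averaged 222 ± 66.7, 83.7 ± 29.5 and 300 ± 84.4 CPM in ES, and 16.2 ± 2.61, 5.68 ± 1.07 and 27.5 ± 4.70 CPM in PAC. For Hsf1 they were Hspa9, the mitochondrial HSP70 (0.30, r 0.977), Ptpdc1 (0.31, r 0.975) and Rhbdd2 (0.34, r 0.977). The 9 points of each profile fall into 3 cell types and share their libraries, so these values describe likeness only.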

How the data were processed

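Per the labels' protocols, ribosomal RNA was removed from total RNA, and second strands made with dUTP were degraded so that strand was kept. HISAT2, StringTie and the build GRCm38.p6 are named in the submitters' processing notes, without versions or counting settings. The authors deposited a table of estimated counts per feature, of which 18.85% of values are not whole, and a table of FPKM, which scale fragments by length and library total. The lengths and totals behind the FPKM are not stated.

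Counts were rounded. Features were kept by filterByExpr (minimum count 10), scaled by TMM and tested in 1 fit of all 9 libraries with edgeR 4.0.16 (quasi-likelihood, robust, two-sided, R 4.3.3). Calls are at a Benjamini-Hochberg adjusted p below 0.05 over all features tested. Total counts per library set the precision: 3 counts came to between 0.0819 and 0.162 CPM. Shares within families were tested by exact permutation. Alternatives were other scalings and filters, limma 3.58.1 on log2(FPKM + 1), DESeq2 1.42.0 and leaving out libraries. No library pair agreed within sampling noise. Same-numbered libraries did not deviate together in every pair (correlations -0.068 to 0.42). Between PAC and ES the correlation was 0.27 for replicate 1, -0.068 for replicate 2 and 0.42 for replicate 3. It was -0.344 for PAC replicate 1 with ES replicate 3, and -0.369 for PAC replicate 3 with ES replicate 1. Hsp90aa1, Hsp90ab1, Dnaja1 and Hsf1 rose with replicate number in both PAC and ES. What same-numbered libraries share is not stated, and its part was not tested. Symbols came from a RefSeq table of GRCm38.p6.

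The members and lists were chosen with earlier results of these data known. Beyond the members, up to 2 genes per list and comparison are named, those with the largest absolute log2 fold change among called genes with a mean of at least 5 CPM. 1 gene that this rule names is not reported here. The likest profiles use 3 genes a member. A few further genes (Hspa1a, Hspa1b, Hsf3, Hsf4, Dnajb11, and the markers Amh, Fshr and Lhcgr) were named after their values were seen. The lists cover HSP70 and HSP110, HSP90, J-domain classes A and B, class C, nucleotide exchange factors, HSP90 cochaperones, heat shock factors, small heat shock proteins, organelle chaperones, heat-inducible genes bound by HSF1 and partners of HSPA2. Marker lists of PAC, RS, ES and 5 other cell types served as checks.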

Additional observations from a re-analysis of the deposited data

How the results depend on the processing

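The number of members lower in RS against PAC (7) was 4 with upper-quartile scaling, 3 with NCBI genes alone and 3 with limma on log2(FPKM + 1) without a filter, and 4 to 7 when 1 library was left out. Members higher in ES against RS (4) were 2 in limma with a pseudocount of 1, with 0.1 and without a filter. Members lower there (0) were 2 with total counts, 1 with NCBI genes alone, 2 in each limma setting and 0 to 1 when 1 library was left out. Members lower in ES against PAC (5) were 2 with upper-quartile scaling, 2 with NCBI genes alone, 2 in a fit of those cell types only, and 3 to 6 without 1 library. Other counts of members stayed within 1.5 times, and all differences in family shares kept their sign.

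Values that changed sign were all of comparisons not called. Dnajb1 in RS against PAC was -0.03 with DESeq2 size factors and in DESeq2. Hsph1 in ES against RS was 0.02 and 0.01 there. Hsp90aa1 in ES against RS was -0.02 with total counts and -0.18 in the 3 limma settings. Dnaja1 in ES against RS was -0.23 with total counts, -0.10 with NCBI genes, -0.07 with the replicate block and -0.34, -0.40 and -0.34 in limma. Hsp90ab1 in ES against PAC was 0.15 with upper-quartile scaling, 0.07 with NCBI genes and 0.06 with those cell types only, and Dnajb1 was 0.03 with upper-quartile scaling. The ranges without 1 library follow. Dnajb1 in RS against PAC ran from 0.00 to 0.09, Hsp90aa1 in ES against RS from -0.06 to 0.56, Dnaja1 from -0.32 to 0.38 and Hsf1 from -0.53 to 0.08, and Hsp90ab1 in ES against PAC from -0.52 to 0.25. The cause was not tested.

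With replicate number as a block, Dnaja1 in ES against PAC passed (-0.91, edgeR adjusted p = 0.00361), and no other member's call changed. Further median shifts of shared features over 0.1 in ES against RS were 0.14 for DESeq2 size factors, 0.13 for DESeq2, -0.14 for NCBI genes alone and -0.32 to -0.35 for limma. In ES against PAC they were 0.25 for NCBI genes alone, 0.20 with those cell types only and -0.22 to -0.27 for limma. Hsf3 and Hsf4 were too low to test, and alternatives for lists and other named genes were added after seeing the data.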
